A study of Mus musculus with 12 samples.

Results

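The 9 genes described here are inhibitors and antagonists of bone morphogenetic protein (BMP) signalling: the inhibitory SMADs Smad6 and Smad7, the pseudoreceptor Bambi, the secreted antagonists Nog, Grem1, Chrd, Fst and Twsg1, and the ubiquitin ligase Smurf1. They were taken by gene symbol, with earlier results of these data known, and they are 9 of the 23358 rows of the deposited gene count table. RNA had been sequenced from MC3T3 sc4 cells, a subclone of a mouse calvarial pre-osteoblast line (strain given as C57BL/6, passage 12). All cells were kept in osteogenic medium with ascorbic acid and β-glycerol phosphate for 1 or 6 days, and the medium and its additions were renewed after 3 days. On each day there were 6 treatments: vehicle, BMP2 at 10 ng/ml, BMP2 at 50 ng/ml, 5 µM GSK126, and GSK126 combined with either BMP2 dose. GSK126 inhibits EZH2, the histone methyltransferase of Polycomb repressive complexes. There is 1 library for each of the 12 conditions, and differences between single libraries therefore have no replicates behind them. Whether libraries stem from separate cultures is not stated, so the spread among them may be technical. For the BMP2, GSK126 and day comparisons, the p-values rest on departures from additive effects of BMP2 dose and GSK126 within each day. Such departures mix the spread of libraries with any joint effect of both agents, and they do not measure a spread of replicates. Both days share 1 estimate of this spread, so the p-values of each day also use the departures of the other day. Fits of 1 day alone called more genes on day 1 and fewer on day 6. At 10 ng/ml BMP2 they called 3376 genes on day 1, against 72 in the shared fit, and 11 on day 6, against 1393. All libraries come from 1 cloned line.

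BMPs are secreted ligands that bring together receptor kinases at the cell surface, which phosphorylate SMAD1, SMAD5 and SMAD9. These pair with SMAD4, enter the nucleus and turn on genes that include several brakes on the pathway itself, and BMP2 is a classical inducer of osteoblast differentiation. The brakes act at different levels: NOG, GREM1, CHRD and FST bind ligands outside the cell, TWSG1 binds ligand together with CHRD, BAMBI is a receptor-like membrane protein without a kinase, SMAD6 and SMAD7 block the activated receptors, and SMURF1 marks SMAD1, SMAD5 and receptors for degradation.

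Libraries held 37150556 to 56872401 read pairs assigned to genes. Every library expressed Runx2, Col1a1 and Col1a2, while the leukocyte gene Ptprc (0 to 4 read pairs), the endothelial gene Cdh5 (0 to 2) and the epithelial gene Krt18 (0 in all) were at or near 0. Other markers of these cell types were higher: Csf1r reached 80 read pairs and Cd68 52 (leukocyte), Pecam1 11 (endothelial) and Cdh1 40 (epithelial). The adipocyte genes Cebpa and Pparg reached 394 and 182 read pairs and the muscle gene Des 454, while Adipoq and Myod1 had 0 to 3. The osteoblast gene Bglap had 0 to 13 read pairs on day 1 and 212 to 23325 on day 6. Of 5 chondrocyte markers Col2a1 was abundant on day 1, at 2500 to 4420 CPM (counts scaled to a common library total), whereas Acan had 0 to 2 read pairs throughout. Sox9 had 1561 to 3767 read pairs on day 1 and 804 to 1264 on day 6, and Col9a1 reached 212 on day 6. The share of precursor ribosomal RNA (Rn45s) in all counts was 8.959 to 11.71% for the day 1 libraries and 13.1 to 21.66% for those of day 6, highest with BMP2 at 50 ng/ml without GSK126. That library also had the lowest scaling factor (0.8128) when libraries were normalised by trimmed mean of M values (TMM). The part of these shifts in the results below was not tested. In such bulk RNA, fewer expressing cells and less RNA per cell cannot be told apart.

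All 9 genes passed the filter on low counts (at least 1 CPM in at least 2 libraries, 12056 genes kept). Compared with each other per length, by the authors' RPKM (counts divided by the length of the gene and the size of the library), the median level over the 12 libraries was highest for Fst (32.89), Twsg1 (29.77) and Grem1 (28.8). Smad6 (14.34), Smurf1 (13.83) and Smad7 (5.6) were intermediate, and Chrd (2.774), Bambi (1.847) and Nog (0.6556) were lowest. Over all 12 libraries the RPKM range of each gene overlapped that of its neighbour in this order. On day 1 alone, 2 steps were free of overlap: Smurf1 (18.32 to 19.85) lay above Smad7 (6.963 to 15.82), and Smad7 lay above Chrd (1.814 to 3.49). Between the lowest and the highest library, CPM differed 12.3-fold for Grem1, 10.4-fold for Smad6, 10.3-fold for Nog and 8.87-fold for Smad7, against 2.26-fold for Fst and 2.47-fold for Twsg1.

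**Figure D1:**
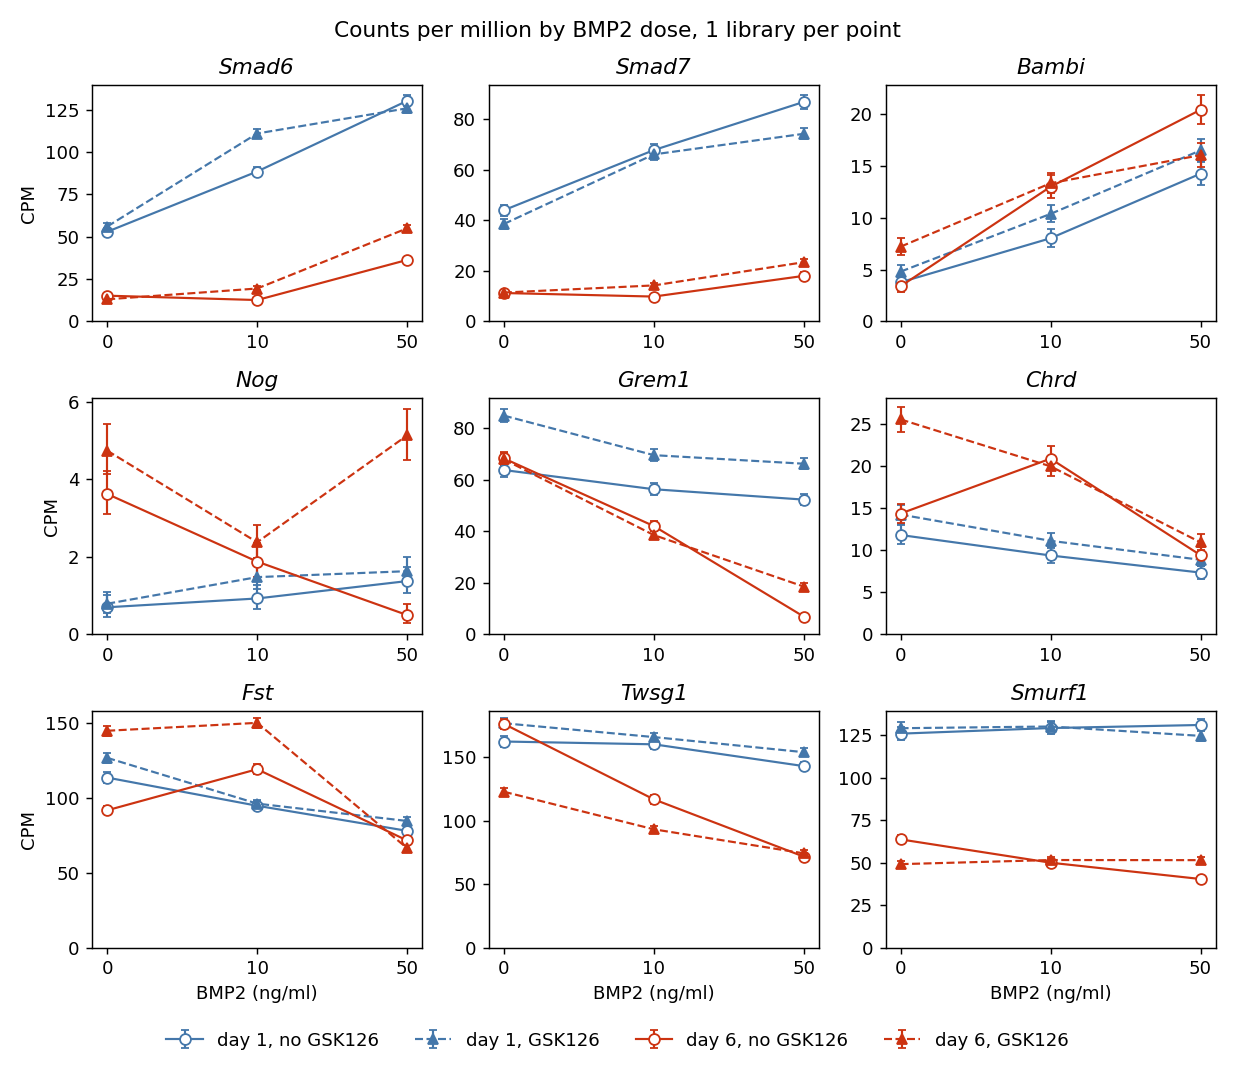
CPM (vertical axis) of the 9 genes at each BMP2 dose in ng/ml (horizontal axis, evenly spaced doses), 1 library per point, with exact Poisson 95% intervals for counting error only. Circles and full lines are libraries without GSK126, triangles and broken lines those with 5 µM GSK126, blue day 1 and red day 6. Smad6 and Smad7 lie lower on day 6 than on day 1 in each of the 6 treatments, and Grem1 reaches its lowest level (6.899) on day 6 with BMP2 at 50 ng/ml alone.

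BMP2 raised the inhibitory SMAD genes Smad6 and Smad7 and the pseudoreceptor gene Bambi on both days, and on day 6 the 50 ng/ml dose also lowered the secreted antagonists Grem1, Chrd and Twsg1. The effect of a dose was the mean over the vehicle and GSK126 backgrounds in 1 edgeR quasi-likelihood fit of all 12 libraries, with Benjamini-Hochberg adjustment over the 12056 genes and a threshold of 0.05. At 10 ng/ml on day 1, 1 of 9 genes (Smad7) rose and 0 fell, where 0.365% of all genes tested rose and 0.232% fell. At 50 ng/ml on day 1, 3 of 9 rose (Smad6, Smad7 and Bambi) and 0 fell, against 2.02% higher and 1.92% lower among all genes. On day 6, 10 ng/ml raised 1 of 9 (Bambi) and lowered 1 of 9 (Twsg1), against 4.78% and 6.78% of all genes. At 50 ng/ml on day 6, 3 of 9 rose (Smad6, Smad7, Bambi) and 3 of 9 fell (Grem1, Chrd, Twsg1), against 16.1% and 17.6%. The median log2 fold change of the 9 genes was 0.06 at 50 ng/ml on day 1 and -0.52 on day 6, where the medians of all genes were -0.003 on both days. The 10 and 50 ng/ml comparisons of a day share the libraries without BMP2. Scaling by library size alone shifted the median gene by -0.22 at 50 ng/ml on day 6 and left 937 of 5611 called genes higher, against 1935 of 4058 with TMM (at 10 ng/ml on day 6, 351 of 1185 against 576 of 1393). All of the 6 member calls at 50 ng/ml on day 6 held under that scaling.

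**Figure D2:**
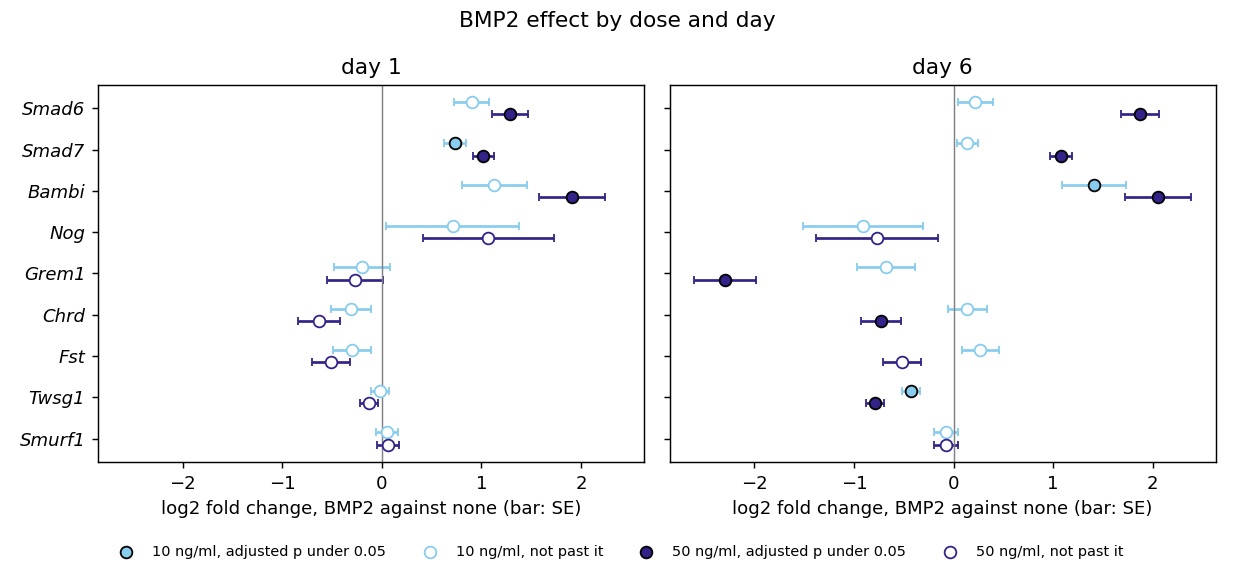
Fitted log2 fold change of BMP2 against none (horizontal axis, bars are SE) for each gene on day 1 (left) and day 6 (right), at 10 ng/ml (light) and 50 ng/ml (dark), each the mean over both GSK126 levels, 4 libraries per dose comparison and day. Filled points have an adjusted p under 0.05: on day 6 at 50 ng/ml Smad6, Smad7 and Bambi lie to the right and Grem1, Chrd and Twsg1 to the left.

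Smad6 (chr9:63953076-64022059, mm10, as are all gene positions here) encodes an inhibitory SMAD that prefers BMP over TGF-beta receptors. On day 1 it was at 52.9 CPM with vehicle, 88.5 with 10 ng/ml and 130.3 with 50 ng/ml BMP2, and at 56.0, 111.0 and 125.9 CPM at the same doses with GSK126. Every library with BMP2 was above both libraries without it. The log2 fold change was 0.9 ± 0.18 (SE, edgeR adjusted p = 0.11) at 10 ng/ml and 1.29 ± 0.18 at 50 ng/ml (2.45-fold, adjusted p = 0.014). On day 6 Smad6 was at 15.15, 12.57 and 36.27 CPM at 0, 10 and 50 ng/ml without GSK126 and at 13.01, 19.38 and 54.95 CPM with it. Here the libraries with 10 ng/ml overlapped those without BMP2, and those with 50 ng/ml stood above all others. At 50 ng/ml the log2 fold change was 1.87 ± 0.19 (3.66-fold, adjusted p = 0.00056), at 10 ng/ml it was 0.22 ± 0.18 (adjusted p = 0.46), and between the doses it was 1.65 ± 0.18 (adjusted p = 0.004). Without the day 6 vehicle library the value at 10 ng/ml on day 6 was 0.59 and passed.

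Smad6 is shown with its promoter because its dose response was among the steepest and a SMAD motif lies at its start. The window runs from 250 bases before to 50 after the RefSeq start (chr9:64022010-64022309, GRCm38.p6, minus strand, printed 5′ to 3′ along the gene), and the capitals mark GTCTAGAC, the palindromic SMAD binding element.
Smad6 promoter: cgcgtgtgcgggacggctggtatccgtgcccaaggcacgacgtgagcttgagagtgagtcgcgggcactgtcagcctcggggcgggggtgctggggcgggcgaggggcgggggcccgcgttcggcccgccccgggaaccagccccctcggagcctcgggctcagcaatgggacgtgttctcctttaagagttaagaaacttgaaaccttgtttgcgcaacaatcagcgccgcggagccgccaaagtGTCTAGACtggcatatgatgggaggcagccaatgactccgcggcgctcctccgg
The element begins at position -4 from the start and so spans it. It was found in 70 of 32851 RefSeq promoter windows of this length (0.213%), both strands searched. The window holds 31 CG dinucleotides, where the median of all windows is 7. Promoter windows of 5 of the 9 genes (Smad6, Grem1, Chrd, Twsg1 and Smurf1) were used here, and 1 of these 5, that of Smad6, held the element. The windows of Smad7 and Bambi, which BMP2 also raised, and of Nog and Fst were not analysed here. The BMP response element (GGCGNC or GACGNC, then 5 bases of any kind, then GTCT, both strands) was in 0 of the 5 and in 0.35% of all windows. A match is a description of letters and does not show that a factor binds there.

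Smad7 (chr18:75367365-75395934) encodes the other inhibitory SMAD, which acts on both BMP and TGF-beta receptors. Its day 1 levels were 44.0, 67.84 and 86.94 CPM at 0, 10 and 50 ng/ml without GSK126 and 38.56, 66.13 and 74.3 CPM with it. All 4 libraries with BMP2 were above both without. The log2 fold change was 0.73 ± 0.11 at 10 ng/ml (1.66-fold, edgeR adjusted p = 0.043) and 1.02 ± 0.11 at 50 ng/ml (2.03-fold, adjusted p = 0.006). By day 6 the levels were 11.21, 9.803 and 18.0 CPM without GSK126 and 11.39, 14.22 and 23.42 CPM with it. As for Smad6, the 2 libraries with 50 ng/ml were the highest and those with 10 ng/ml overlapped the untreated ones. With 50 ng/ml Smad7 rose by 1.08 ± 0.11 (2.11-fold, adjusted p = 0.00063), at 10 ng/ml the value was 0.14 ± 0.11 (adjusted p = 0.43), and 50 against 10 ng/ml gave 0.93 ± 0.11 (adjusted p = 0.0044).

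The pseudoreceptor Bambi (chr18:3507957-3516404) was the weakest expressed of the 3 genes that rose. On day 1 it was at 3.768, 8.019 and 14.25 CPM at 0, 10 and 50 ng/ml without GSK126 and at 4.795, 10.37 and 16.5 CPM with it, from 140 to 911 read pairs. The levels at each dose stood apart from those at the next in both backgrounds. The log2 fold change was 1.13 ± 0.33 at 10 ng/ml (edgeR adjusted p = 0.25) and 1.91 ± 0.33 at 50 ng/ml (3.75-fold, adjusted p = 0.029). On day 6 Bambi was at 3.381, 12.99 and 20.42 CPM without GSK126 and at 7.203, 13.33 and 16.04 CPM with it. The 2 libraries at 10 ng/ml were nearly alike, while the 2 libraries without BMP2 were not. Bambi rose by 1.41 ± 0.32 at 10 ng/ml (2.65-fold, adjusted p = 0.038) and by 2.05 ± 0.33 at 50 ng/ml (4.13-fold, adjusted p = 0.0039), and the difference between the doses was 0.64 ± 0.31 (adjusted p = 0.22). That difference passed without the day 6 combination library at 50 ng/ml (1.1), the day 6 vehicle (0.61) or the day 6 library with GSK126 alone (0.6). With the day 6 vehicle library left out the value of Bambi at 10 ng/ml was 0.81, and with GSK126 alone left out it was 2.18.

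Between the doses on day 1, 0 of 9 genes and 0% of all genes passed in either direction, with 398 of 12056 genes at an unadjusted p under 0.05; for Smad6, Smad7 and Bambi the values were 0.39 ± 0.18, 0.29 ± 0.11 and 0.77 ± 0.31. On day 6, 50 against 10 ng/ml raised 2 of 9 (Smad6 and Smad7; 5.33% of all genes) and lowered 4 of 9 (Grem1, Chrd, Fst and Twsg1; 6.47%). Library size scaling shifted the median gene of that comparison by -0.151, with 345 of 2450 called genes higher against 643 of 1423.

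Grem1 (chr2:113748675-113758648) encodes gremlin, which binds and blocks BMP2 and BMP4, and it had the widest range of the 9 genes. Levels on day 1 were 63.69, 56.25 and 52.23 CPM at 0, 10 and 50 ng/ml without GSK126 and 84.77, 69.45 and 66.13 CPM with it. They were lower at each higher dose in both backgrounds, with overlap between doses, and the log2 fold change at 50 ng/ml was -0.27 ± 0.28 (edgeR adjusted p = 0.65). On day 6 the levels were 68.19, 41.98 and 6.899 CPM without GSK126 and 67.81, 38.5 and 18.55 CPM with it. The 3 doses did not overlap, and the ratio of the library with 50 ng/ml alone to vehicle was 0.101. Grem1 fell by 2.29 ± 0.31 at 50 ng/ml (4.9-fold, adjusted p = 0.0019). The log2 fold change was -1.62 ± 0.3 for 50 against 10 ng/ml (adjusted p = 0.019) and -0.68 ± 0.29 for 10 ng/ml against none (adjusted p = 0.17). The latter passed with DESeq2 (-0.67) and without either day 6 library at 50 ng/ml (-0.69 and -0.68). The value between doses was -1.02 without the library at 50 ng/ml alone and -1.26, no longer past the threshold, without the library at 10 ng/ml alone.

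Chrd (chr16:20733127-20742384) encodes chordin, an extracellular antagonist of BMP2 and BMP4. Its day 1 levels were 11.82, 9.386 and 7.354 CPM at 0, 10 and 50 ng/ml without GSK126 and 14.25, 11.13 and 8.876 CPM with it. They decreased with dose in both backgrounds, and the fitted change at 50 ng/ml was -0.63 ± 0.21 (edgeR adjusted p = 0.15). On day 6 Chrd was at 14.37, 20.89 and 9.423 CPM without GSK126 and at 25.56, 19.98 and 10.95 CPM with it. Only the 2 libraries with 50 ng/ml lay below vehicle. Chrd fell by 0.73 ± 0.2 at 50 ng/ml (1.65-fold, adjusted p = 0.032), and 50 against 10 ng/ml gave -0.87 ± 0.2 (adjusted p = 0.039). Against none the value was -1.13 without the vehicle library and -0.26 without the library with GSK126 alone, and it did not pass when any 1 of the 6 day 1 libraries (-0.73) or either day 6 library with 50 ng/ml (-0.88 and -0.56) was left out, or in a fit of day 6 alone (-0.72). At 10 ng/ml on day 6 Chrd was at 0.14 and did not pass, but it was at 0.6 and passed without the library with GSK126 alone. Thpo lies on the opposite strand and overlaps the 5′ end of Chrd. The sources used here do not give the strand setting of the counting, so reads of the 2 genes cannot be told apart there.

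The promoters of Grem1 (chr2:113758599-113758898, GRCm38.p6, minus strand) and Chrd (chr16:20732877-20733176, plus strand) are shown as those of 2 antagonists that fell with the high dose on day 6, with GGCGCC, a GC-rich site described for SMAD1 and SMAD5, in capitals.
Grem1 promoter: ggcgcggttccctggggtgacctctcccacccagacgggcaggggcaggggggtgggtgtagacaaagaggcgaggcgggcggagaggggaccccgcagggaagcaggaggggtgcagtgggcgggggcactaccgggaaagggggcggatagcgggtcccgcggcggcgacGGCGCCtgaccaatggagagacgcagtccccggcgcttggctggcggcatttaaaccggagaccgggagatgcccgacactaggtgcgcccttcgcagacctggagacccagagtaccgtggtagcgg
Chrd promoter: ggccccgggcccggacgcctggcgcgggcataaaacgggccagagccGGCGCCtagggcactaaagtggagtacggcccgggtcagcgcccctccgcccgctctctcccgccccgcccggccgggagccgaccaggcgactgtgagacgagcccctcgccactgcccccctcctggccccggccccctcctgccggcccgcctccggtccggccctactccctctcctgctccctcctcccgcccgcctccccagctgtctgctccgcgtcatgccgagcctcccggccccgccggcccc
GGCGCC begins at position -78 in Grem1 and at -203 in Chrd, and it is common: 11.9% of all promoter windows hold it. The windows of Twsg1, which also fell, and of Smurf1 hold 0 matches to any of the 3 motifs. CG dinucleotides numbered 28 in Grem1 and 34 in Chrd, and 85.8% and 92.2% of all windows hold fewer. GGCGCC itself contains CG, and its share among windows as rich in CG as these was not computed.

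Twsg1 (chr17:65923065-65951187), whose product binds BMPs and can both strengthen and weaken the hold of chordin, was abundant and varied little on day 1. It was then at 162.5, 160.3 and 143.1 CPM at 0, 10 and 50 ng/ml without GSK126 and at 176.9, 166 and 154.1 CPM with it. The log2 fold change at 50 ng/ml was -0.13 ± 0.09 (edgeR adjusted p = 0.44). On day 6 the levels were 176.4, 116.9 and 71.74 CPM without GSK126 and 122.9, 93.28 and 74.34 CPM with it. Each dose lay below the lower one in both backgrounds, and the 2 libraries with 50 ng/ml were the lowest of all 12. Twsg1 fell at both doses, with log2 fold changes of -0.43 ± 0.09 at 10 ng/ml (1.34-fold, adjusted p = 0.029), -0.79 ± 0.09 at 50 ng/ml (1.73-fold, adjusted p = 0.00091) and -0.37 ± 0.09 between them (adjusted p = 0.042). The last value was -0.22, no longer past the threshold, without the library at 50 ng/ml alone.

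Fst (chr13:114452262-114458730) encodes follistatin, which binds activins most tightly and several BMPs. Its day 1 libraries were at 113.7, 94.86 and 78.07 CPM at 0, 10 and 50 ng/ml without GSK126 and at 126.9, 96.29 and 84.68 CPM with it. On day 6 it was at 91.81, 119.3 and 71.64 CPM without GSK126 and at 145, 150.3 and 66.49 CPM with it. The 2 libraries with 50 ng/ml were the lowest of each day. Against none, 50 ng/ml gave -0.51 ± 0.19 on day 1 (edgeR adjusted p = 0.2) and -0.52 ± 0.19 on day 6 (adjusted p = 0.077), and neither passed. Other settings did call them: on day 6 DESeq2 (-0.51), library size scaling (-0.74), an added interaction term (-0.52), or leaving out the day 6 vehicle (-0.84) or the day 6 library at 50 ng/ml alone (-0.91), and on day 1 a fit of that day alone (-0.5) or leaving out any 1 of the 4 day 6 libraries at 0 or 50 ng/ml (-0.51 to -0.5). At 10 ng/ml on day 6 Fst was at 0.27 and did not pass, and at 0.62 and passed without the library with GSK126 alone. Between 10 and 50 ng/ml on day 6 Fst fell by 0.79 ± 0.19 (1.73-fold, adjusted p = 0.042). That value was -1.2 without the library at 50 ng/ml alone and -0.43 without the one at 50 ng/ml with GSK126. The noncoding gene Gm47040 overlaps the 5′ end of Fst on the opposite strand.

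Nog (chr11:89300638-89302559) encodes noggin, a high-affinity BMP antagonist that BMPs are known to induce in osteoblasts. It was the weakest of the 9 genes, with 20 to 243 read pairs a library. On day 1 it was at 0.6999, 0.927 and 1.375 CPM at 0, 10 and 50 ng/ml without GSK126 and at 0.7918, 1.477 and 1.63 CPM with it. Each dose was above the one below in both backgrounds, and the fitted change at 50 ng/ml was 1.07 ± 0.66 (edgeR adjusted p = 0.41). On day 6 Nog was at 3.62, 1.877 and 0.4999 CPM without GSK126 and at 4.736, 2.375 and 5.127 CPM with it. The 2 libraries with 50 ng/ml on day 6 are the lowest and the highest of the 12, and their exact Poisson 95% intervals (0.3054 to 0.7721 CPM from 20 read pairs, 4.503 to 5.814 CPM from 243) do not meet. The fitted change at 50 ng/ml on day 6, -0.77 ± 0.61 (adjusted p = 0.38), therefore averages 2 unlike libraries: it was -2.57, past the threshold, without the combination library and 0.26 without the library with 50 ng/ml alone. At 10 ng/ml on day 6 the value was -0.91 and did not pass, and it was -0.9 and passed without either day 6 library at 50 ng/ml.

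Smurf1 (chr5:144876495-144965830) encodes the ubiquitin ligase that binds SMAD1 and SMAD5, and it did not pass in any BMP2 comparison with all 12 libraries. The day 1 levels were 125.9, 129.2 and 131 CPM at 0, 10 and 50 ng/ml without GSK126 and 129.1, 130.1 and 124.6 CPM with it. On day 6 it was at 63.68, 49.96 and 40.37 CPM without GSK126 and at 49.11, 51.53 and 51.46 CPM with it. After TMM scaling the log2 fold changes were 0.05 ± 0.11 and 0.06 ± 0.11 at 10 and 50 ng/ml on day 1 and -0.08 ± 0.12 at both doses on day 6 (edgeR adjusted p = 0.9, 0.81, 0.7 and 0.64). All 4 values lay within 1 SE of 0. The day 6 values depended on 1 library: without the day 6 library with GSK126 alone both passed, with -0.3 at 10 ng/ml and -0.31 at 50 ng/ml.

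Support for the BMP2 calls differed by dose and day. On day 6 at 50 ng/ml, Smad6, Smad7, Bambi, Grem1 and Twsg1 passed with each of the 12 libraries left out in turn and in a fit of day 6 alone. Between 50 and 10 ng/ml on day 6, 0 of the 6 calls passed in a fit of day 6 alone, where 6 of all 11804 genes did. In the comparison of these doses, Smad6 (1.43 to 1.91) and Smad7 (0.75 to 1.13) passed with each library left out. Grem1, Chrd, Fst and Twsg1 did not pass there with any 1 of the 6 day 1 libraries left out (-1.62, -0.87, -0.79 and -0.37), nor without the day 6 library at 10 ng/ml alone (-1.26, -0.58, -0.84 and -0.35). Chrd, Fst and Twsg1 also did not pass without the day 6 library at 10 ng/ml with GSK126 (-1.13, -0.74 and -0.39), nor Chrd without either library at 50 ng/ml (-1.04 and -0.71).

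The day 1 calls at 50 ng/ml were lost when any 1 of the 4 day 1 libraries at 0 or 50 ng/ml was left out, although the values moved little (1.17 to 1.41 for Smad6, 0.97 to 1.07 for Smad7 and 1.84 to 1.98 for Bambi). That of Bambi was also lost without any 1 of the 4 libraries of both days at 10 ng/ml (1.91). Smad7 at 10 ng/ml did not pass with any 1 of the 6 day 1 libraries left out (0.65 to 0.82), under library size scaling (0.7) or with an interaction term (0.73). Such losses were not particular to these genes. At 50 ng/ml nearly all calls among all genes were lost too without any 1 of the 4 day 1 libraries at 0 or 50 ng/ml. The same held at 10 ng/ml without any 1 of the 6 day 1 libraries. A fit of day 1 alone called 7 of 9 genes at 10 ng/ml and 8 of 9 at 50 ng/ml, and of all 11578 genes in it 3376 and 4803. Some day 1 values that had not passed did so elsewhere: with DESeq2 Smad6 (0.9) and Bambi (1.14) at 10 ng/ml and Chrd (-0.62) at 50 ng/ml, and without either day 6 library at 50 ng/ml Grem1 (-0.27) and Nog (1.07) at 50 ng/ml. At 10 ng/ml on day 6, Bambi (1.3 to 1.54) and Twsg1 (-0.45 to -0.4) did not pass with any 1 of the 6 day 1 libraries or either day 6 library at 10 ng/ml left out, nor in a fit of day 6 alone, and Twsg1 not without the day 6 vehicle (-0.29). The fit of day 6 alone called 11 of all 11804 genes at 10 ng/ml.

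The osteoblast markers moved with the same treatments. At 50 ng/ml 4 of 9 rose on day 1 and 8 of 9 on day 6, against 2.02% and 16.1% of all genes. On either day 0 of them fell, against 1.92% and 17.6%. Their summed level, most of it Col1a1 and Col1a2, was 46800 to 57600 CPM on day 1 and 64600 to 142000 CPM on day 6. The part of such differentiation in the changes of the inhibitors was not tested.

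The response to BMP2, as the mean of both doses, differed between days for 1 of the 9 genes. Twsg1 was lowered more on day 6 than on day 1, by 0.53 ± 0.11 on the log2 scale (edgeR adjusted p = 0.028), where 3.82% of all genes had a more positive and 5.33% a more negative effect on day 6. Grem1 (-1.25 ± 0.35, adjusted p = 0.075) and Nog (-1.73 ± 0.78, adjusted p = 0.22) had larger differences that did not pass. That of Grem1 passed with DESeq2 (-1.26) and limma-voom (-1.24), and without the day 6 library with GSK126 alone (-1.48), with 50 ng/ml alone (-0.96) or with both (-1.63). That of Nog passed without either day 6 library at 50 ng/ml, at -1.21 without 50 ng/ml alone and -2.62 without the combination. For Smad6 (-0.05 ± 0.22), Smad7 (-0.27 ± 0.13) and Bambi (0.21 ± 0.4) the difference between days was not past the threshold either, so their fold responses were not shown to differ even where levels did. Without the day 6 library with GSK126 alone the differences of Bambi (0.96), Chrd (0.64) and Smurf1 (-0.36) passed, and without the day 6 combination at 50 ng/ml that of Fst (0.47) did. The value of Twsg1 lay between -0.66 and -0.39 with single libraries left out, and it did not pass with any 1 of the 6 day 1 libraries or either day 6 library at 10 ng/ml left out. Library size scaling shifted the median gene by -0.105 here, with 268 of 1055 called genes higher against 460 of 1102.

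Between day 1 and day 6 all 9 genes changed, 4 upwards and 5 downwards, in a comparison in which most genes did: 40.5% of all genes tested were higher and 37.5% lower on day 6. The inhibitory SMADs fell most. As the mean over the 6 treatments, Smad7 fell by 1.9 ± 0.06 (3.73-fold, edgeR adjusted p = 4.3e-07) and Smad6 by 1.83 ± 0.11 (3.55-fold, adjusted p = 5.1e-06), with day 6 lower in 6 of 6 treatments (treatments and pairs are counted throughout on TMM-scaled CPM, which can order close libraries otherwise than plain CPM). Even with 50 ng/ml BMP2, Smad7 on day 6 (18.0 CPM, and 23.42 with GSK126) was below its level on day 1 without BMP2 (44.0 and 38.56 CPM). For Smad6 the same 2 ranges (36.27 and 54.95 CPM against 52.9 and 56.0) overlapped. Smurf1 fell by 1.13 ± 0.07 (2.19-fold, adjusted p = 5.9e-06), and its 6 day 6 libraries lay below its 6 day 1 libraries without overlap. Grem1 (-0.79 ± 0.17, adjusted p = 0.0034) and Twsg1 (-0.41 ± 0.05, adjusted p = 0.00022) were lower on day 6 in 5 of 6 treatments, with the vehicle pair the other way round for both.

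Among the risers, Chrd was higher on day 6 in 6 of 6 treatments (0.85 ± 0.12, 1.81-fold, edgeR adjusted p = 0.00039). Nog rose by 1.5 ± 0.36 (2.84-fold, adjusted p = 0.0067) and was higher in 5 of 6, the exception being 50 ng/ml BMP2 alone. Without the day 6 combination library at 50 ng/ml the rise of Nog was 0.88. Bambi (0.58 ± 0.18, adjusted p = 0.023; 5 of 6) and Fst (0.29 ± 0.11, adjusted p = 0.044; 4 of 6) rose less and less firmly: under library size scaling they were at 0.36 and 0.07 and did not pass. That scaling shifted the median gene from 0.03 to -0.179 and left 3073 of 9307 called genes higher, against 4883 of 9407, and under it Twsg1 was at -0.62. Bambi was at 0.32 without the day 6 library with GSK126 alone and at 0.38 without the one with 50 ng/ml alone, and Fst at 0.17 and 0.15. Bambi (0.54 to 0.6) and Fst (0.27 to 0.31) did not pass with any 1 of the 6 day 1 libraries or the day 6 library at 10 ng/ml alone left out, nor Fst without the day 6 libraries with GSK126 alone (0.17) or with GSK126 and 10 ng/ml (0.27).

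On day 1 GSK126, averaged over the BMP2 doses, raised 0 of 9 and lowered 0 of 9, as it did 0% of all genes in each direction by edgeR, with 755 of 12056 at an unadjusted p under 0.05. DESeq2 called 6 of all genes there, limma-voom 0, and a fit of day 1 alone 2030 of 11578 genes and 4 of the 9. On day 6 it lowered 1 of 9, Twsg1, and raised 0, against 14.3% of all genes higher and 14% lower. The median log2 fold change of the 9 genes on day 6 was 0.27, that of all genes -0.002. Twsg1 fell by 0.3 ± 0.07 (1.24-fold, adjusted p = 0.021) and was lower with GSK126 at all 3 BMP2 doses, most without BMP2 (176.4 CPM with vehicle, 122.9 with GSK126) and least at 50 ng/ml, where the plain CPM were 71.74 and 74.34 and the TMM-scaled log2 ratio was -0.1. The call did not pass under library size scaling (-0.27), in a fit of day 6 alone (-0.3), or without the day 1 vehicle, the day 1 library with GSK126 alone or either day 6 library at 10 ng/ml (-0.3 to -0.29). Under library size scaling 1841 of 3024 called genes were higher, against 1726 of 3415. Markers moved with GSK126 too: on day 6 it raised 4 of 9 osteoblast markers and lowered 1, and raised 2 of the 3 chondrocyte markers tested. The summed level of 5 chondrocyte markers, most of it Col2a1, was 92.4 to 334 CPM without and 306 to 1090 CPM with GSK126. The part of these marker changes in the result was not tested.

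Among genes that did not pass for GSK126 on day 6, Smad7 (0.27 ± 0.09, edgeR adjusted p = 0.06) and Nog (1.17 ± 0.51, adjusted p = 0.13) were higher with GSK126 at 3 of 3 doses. Smad7 passed without the day 6 vehicle or without the day 6 GSK126 library (0.38 in both cases). Smad6 was at 0.3 ± 0.15 (adjusted p = 0.17), and at 0.54 and 0.53, past the threshold, without those same libraries. The value of Nog was 0.38 without either day 6 library at 50 ng/ml. Fst (0.26 ± 0.16, adjusted p = 0.25) was at 0.51 and passed without either of those 2 libraries. Chrd (0.29 ± 0.17), Grem1 (0.36 ± 0.24) and Bambi (0.18 ± 0.26) had adjusted p of 0.23, 0.31 and 0.64, and Smurf1 was at -0.03 ± 0.09.

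The effect of GSK126 was also compared between days, where 3.94% of all genes had a more positive and 6.52% a more negative effect on day 6, and 0 of 9 genes passed in either direction. Smad7 came nearest on one side (0.46 ± 0.12, edgeR adjusted p = 0.065): with GSK126 it was lower in 3 of 3 pairs on day 1 and higher in 3 of 3 on day 6. Twsg1 came nearest on the other side (-0.36 ± 0.1, adjusted p = 0.07), and it was lower with GSK126 in 3 of 3 pairs on day 6. On day 1 it was higher in 3 of 3 pairs, but only by log2 ratios of 0.08, 0.02 and 0.08 at 0, 10 and 50 ng/ml. The fitted effect on day 1 was 0.06 ± 0.07 (edgeR adjusted p = 0.92). Leaving out 1 day 6 library moved both past the threshold, Smad7 without vehicle or GSK126 alone (0.56) and Twsg1 without either library at 50 ng/ml (-0.47).

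**Figure D3:**
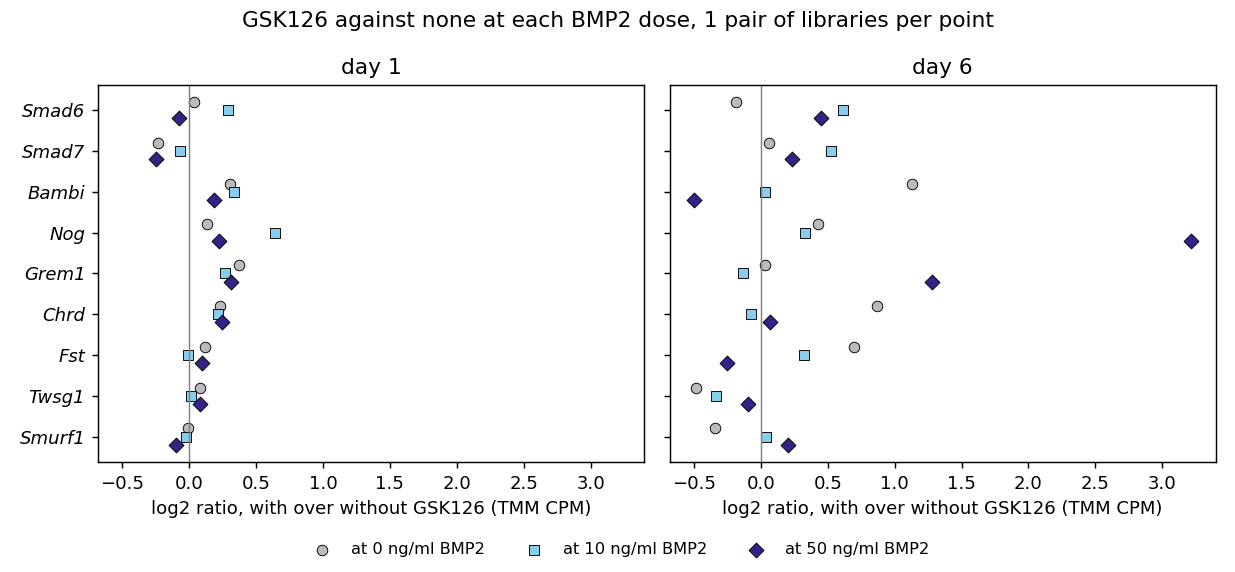
Log2 ratio of TMM-scaled CPM with over without 5 µM GSK126 (horizontal axis) at 0 (grey circles), 10 (light squares) and 50 ng/ml BMP2 (dark diamonds), day 1 left and day 6 right, 1 pair of libraries per point and no error bar. Day 1 points lie within -0.25 and 0.64, while day 6 points range from -0.5 for Bambi at 50 ng/ml to 3.21 for Nog at 50 ng/ml.

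With 1 library per combination, joint effects of BMP2 and GSK126 could be described for single libraries and tested only by taking both BMP2 doses as repeats. On day 6 Nog had the widest departure: relative to vehicle and on the TMM-scaled log2 scale, 50 ng/ml BMP2 alone was at -2.55, GSK126 alone at 0.42 and both at 0.67, which is 2.79 above the sum of the single effects. At 10 ng/ml the same excess of Nog was -0.09. For Grem1, 50 ng/ml was at -3.0 alone and both agents at -1.72, an excess of 1.25, with -0.16 at 10 ng/ml. Both genes were thus low in the library with 50 ng/ml alone and higher in the combination library at that dose, which was not so for Grem1 at 10 ng/ml.

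For Bambi on day 6 the excess was negative at both doses. GSK126 alone was at 1.13 and BMP2 alone at 2.04 and 2.9, while the combinations were at 2.07 and 2.41, an excess of -1.1 and -1.62. Chrd (GSK126 alone 0.87; excess -0.94 and -0.8) and Fst (GSK126 alone 0.7; excess -0.37 and -0.95) were likewise below the sum at 10 and 50 ng/ml. Smad6 was above it (0.8 and 0.64), as were Smad7 (0.47 and 0.17), Twsg1 (0.15 and 0.39) and Smurf1 (0.38 and 0.54). The excess at 10 and that at 50 ng/ml use the same vehicle library and the same library with GSK126 alone, so the 2 doses are not independent repeats. For Chrd on day 6 the log2 ratio with over without GSK126 was -0.07 at 10 and 0.07 at 50 ng/ml, so both excess values rest on the library with GSK126 alone and the vehicle. On day 1 every excess of the 9 genes lay between -0.13 and 0.5.

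In the test of this interaction, 0 of 9 genes passed on either day, where on day 1 0.00829% of all genes (1 gene) passed higher and 0% lower and on day 6 0% passed in either direction, with 28 and 1125 of 12056 genes at an unadjusted p under 0.05. On day 6 the edgeR interaction was -1.41 ± 0.71 for Bambi (adjusted p = 0.58), 1.22 ± 1.0 for Nog (adjusted p = 0.72), -0.89 ± 0.62 for Chrd (adjusted p = 0.68) and 0.46 ± 0.12 for Smurf1 (adjusted p = 0.35). In this fit the 2 doses, which differ in their own effect, served as repeats. A gene whose level differs between the doses gets a wide SE (1.14 for Smad6 and 1.16 for Grem1 on day 6), and the test could hardly call it. That 0 of 9 passed therefore does not show that joint effects are absent. On day 6 DESeq2 called 190 of 12056 genes, and edgeR called 156 of 12043 without the day 6 library at 10 ng/ml alone, with 0 of the 9 members among either.

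The rest of the pathway was read from lists of named genes. Of 18 other intracellular negative regulators, all tested, BMP2 at 50 ng/ml raised 3 on day 1 and 5 on day 6 and lowered 0, against the 2.02% and 16.1% of all genes that rose and the 1.92% and 17.6% that fell. Skil, a repressor of SMAD transcription that TGF-beta and BMP signals induce, rose by 0.71 ± 0.08 on day 1 and by 1.84 ± 0.09 on day 6 (edgeR adjusted p = 0.0088 and 4.6e-05). Smurf2, the close relative of Smurf1, rose by 0.66 ± 0.05 and 0.67 ± 0.05 (adjusted p = 0.0023 and 0.00022), where Smurf1 was at 0.06 and -0.08. On day 6 GSK126 raised 5 of the 18, among them Ppp1r15a (0.91 ± 0.06) and Skil (0.88 ± 0.07), and lowered 0, against 14.3% and 14% of all genes. With time 4 of them rose and 13 fell, against 40.5% and 37.5%.

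Of 23 other secreted antagonists and BMP-binding proteins 16 could be tested. BMP2 at 50 ng/ml raised 2 and lowered 1 on day 1 (all genes: 2.02% and 1.92%), and raised 2 and lowered 4 on day 6 (all genes: 16.1% and 17.6%). Chrdl1, a relative of chordin, fell by 1.37 ± 0.23 on day 1 (adjusted p = 0.028). On day 6 Fstl1, a relative of follistatin, fell by 1.19 ± 0.1 (adjusted p = 0.0003) and the secreted protease Htra1 by 1.88 ± 0.26 (adjusted p = 0.0021). GSK126 on day 6 raised 2, Htra3 (0.98 ± 0.15) and Bmper (0.7 ± 0.19), and lowered 2, among them Fstl1 (-0.66 ± 0.08), against 14.3% and 14% of all genes.

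Of 21 BMP ligands, receptors and signal-transducing SMADs 12 could be tested, and at 50 ng/ml 2 rose and 1 fell on day 1 and 3 rose and 1 fell on day 6, against the same shares of all genes. Smad9, which transmits the BMP signal weakly, rose by 1.16 ± 0.14 and 1.97 ± 0.15 (edgeR adjusted p = 0.0091 and 0.00022). The ligand Bmp4 fell by 1.16 ± 0.11 on day 1 (adjusted p = 0.0049), and the ligand Gdf6 fell by 4.44 ± 0.29 on day 6 (adjusted p = 0.00013). Of 16 other target genes of BMP-SMAD signalling, 7 rose and 0 fell at 50 ng/ml on day 1, with a median log2 fold change of 0.9 (all genes: 2.02% and 1.92%). On day 6 13 of them rose and 1 fell, with a median of 1.81 (all genes: 16.1% and 17.6%). Id3 (2.31 ± 0.22) and Hes1 (2.54 ± 0.2) were among the risers, and Id4 fell by 3.02 ± 0.24. Of 14 genes of the TGF-beta and activin arm, 3 rose and 5 fell at 50 ng/ml on day 6, against 16.1% and 17.6% of all genes. The median log2 fold change of these 14 was -0.08. Among the called genes, Tgfb1 was at 1.63 ± 0.15 and its receptor gene Tgfbr2 at -1.54 ± 0.17.

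The 9 genes did not share 1 pattern. Pearson's r of log2 CPM over the 12 libraries, after the mean of each day was subtracted, was 0.97 between Smad6 and Smad7, 0.93 between Chrd and Fst and 0.79 between Grem1 and Twsg1. It was 0.77 between Smad6 and Bambi and -0.81 between Smad6 and Chrd. These describe 12 libraries that share doses, days and scaling, and no test was made. Among 9376 genes searched, the ones most like Smad6 were Atoh8 (r = 0.988), a known BMP target that encodes a transcription factor, Gse1 (0.982) and Rora (0.975). Smad7 was most like Smad6 (0.967), then Ripk2 (0.963) and Uhrf1bp1l (0.962), and Bambi most like the Wnt inhibitor Wif1 (0.977), Plod3 (0.977) and Sh2b2 (0.974). Grem1 was most like Bnc2 (0.981), Sulf2 (0.974) and Oaz2 (0.973), and Twsg1 most like Trim2 (0.994), Amot (0.989) and Tcf12 (0.988). The nearest genes were Ccnd2 for Nog (0.968), Eif2d for Chrd (0.949), Stx11 for Fst (0.972) and Rasa1 for Smurf1 (0.936).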

How the data were processed

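The libraries, made with an mRNA kit per the labels, were grouped by their titles. Gene counts and RPKM come from 1 table that the authors deposited. Per the submitters' processing notes, reads were handled with bcl2fastq, TopHat2 2.0.6 and HTSeq against mm10. Counting options, strand and annotation release: not given in the sources used here. None of the 195176 deposited counts above 0 was odd, as if both mates of a pair had been counted; counts were tested as deposited, and Poisson 95% intervals use read pairs and cover counting error only. CPM were computed over the sum of gene counts. The authors' RPKM, used only to compare genes with each other, imply library totals 1.23 to 1.3 times those sums.

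Tests were edgeR 4.0.16 (R 4.3.3) quasi-likelihood tests with TMM on genes reaching 1 CPM in 2 libraries, with Benjamini-Hochberg adjustment. The additive model had 8 coefficients (day, and each BMP2 dose and GSK126 within day) and 4 residual degrees of freedom, and the interaction model crossed day, GSK126 and any BMP2. SE is the size of the log2 fold change divided by the square root of F. The members and gene lists were chosen with earlier results of these data known. All 9 members are named, and from each other list up to 3 called genes per comparison, of mean CPM at least 5 and largest change. Some genes that this rule names are not reported here. Alternatives were library size scaling, DESeq2 1.42.0, limma-voom (limma 3.58.1), no filter, halved counts, fits per day, an added interaction term and each library left out. The scripts were tested on simulated data. Promoter windows are from RefSeq (GRCm38.p6) and gene overlaps from GENCODE vM21.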

Additional observations from a re-analysis of the deposited data

Results flagged for a closer look

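The difference between days in the BMP2 effect on Twsg1 was -0.53 ± 0.11 on the log2 scale (edgeR adjusted p = 0.028), set apart because the difference itself passed its test: the mean effect of both doses was near 0 on day 1 and a fall on day 6.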

How the results depend on the processing

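No paired analysis was possible because each condition has 1 library and so no replicate numbers to pair. Of 2097 comparisons of a single gene with an alternative, 1880 stayed on their side of the threshold, 125 lost it, 89 gained it and 3 reversed, and 72 values past no threshold in either fit changed sign. Most of these comparisons started from a value that had not passed, and only a value that had passed could lose the threshold. The 1880 therefore do not measure how firm the calls were. Of the 9 genes, the number called at 10 ng/ml on day 1 was 1 as reported, 0 under library size scaling, 3 with DESeq2, 7 in a fit of that day alone and 0 to 3 with 1 library left out. In fits of 1 day alone, which use 6 libraries, it was 8 at 50 ng/ml, 6 for 50 against 10 ng/ml and 4 for GSK126 on day 1. On day 6 it was 0 at 10 ng/ml, 0 for 50 against 10 ng/ml and 0 for GSK126. Of all 11578 genes these fits called 3376 at 10 ng/ml, 4803 at 50 ng/ml, 1180 for 50 against 10 ng/ml and 2030 for GSK126 on day 1. Of all 11804 genes on day 6 they called 11 at 10 ng/ml, 6 for 50 against 10 ng/ml and 956 for GSK126. For GSK126 on day 6 the number of the 9 genes called was 0 under library size scaling and 3 with DESeq2. For the difference in BMP2 effect between days it was 2 with DESeq2 and with limma-voom, and for that in GSK126 effect 2 with DESeq2. With 1 library left out the number was 0 to 6 at 50 ng/ml on day 1, 0 to 5 at 10 ng/ml on day 6, 2 to 7 for 50 against 10 ng/ml on day 6, 0 to 3 for GSK126 on day 6, 0 to 5 for the BMP2 difference and 0 to 3 for the GSK126 difference, against 3, 2, 6, 1, 1 and 0 as reported. At 50 ng/ml on day 6 it stayed at 5 to 7. Nog at 50 against 10 ng/ml on day 6 was 0.14 as reported, -1.67 without the combination library at 50 ng/ml and 1.16 without 50 ng/ml alone, both past the threshold. The difference of Grem1 in GSK126 effect between days was 0.04 as reported and -0.37, past the threshold, without either day 6 library at 50 ng/ml, and up to 0.3 without either at 10 ng/ml. The cause of these shifts was not tested beyond these values. Interaction fits without the vehicle library or the library with GSK126 alone of that day could not be made. Nog, at 20 to 243 read pairs, is the gene that depth limits most.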
